A study of Mus musculus with 4 samples.

Results

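The genes described here are 10 genes of the smooth muscle contractile apparatus, Acta2, Tagln, Myh11, Cnn1, Des, Actg2, Lmod1, Smtn, Cald1 and Synpo2, out of 54232 genes in a table of adult mouse kidney RNA. They were taken by gene symbol, as genes of a programme that depends on Tshz3 in the embryonic ureter, and each symbol matched 1 gene. Poly(A) RNA was sequenced from kidneys of mice at 60 days of age. The libraries labelled HET came from Tshz3+/LacZ mice, which carry a LacZ allele of Tshz3 beside a normal allele, and the libraries labelled WT from wild-type mice. Each genotype had 2 libraries made from pooled kidney RNA, with 3 kidneys per group in equal shares according to the labels. It is not stated that a genotype's pools came from separate animals, and the p-values below therefore measure only how far these pools vary. How much of that spread lies between animals is not known. The sources used here do not give the sex of the mice or the make-up of the LacZ allele.

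Smooth muscle cells shorten when myosin filaments pull on actin filaments that are anchored in dense bodies and in the cell membrane. Most genes of this apparatus are switched on by serum response factor (SRF) with its partner myocardin, through a DNA element called the CArG box. In the mouse embryo the zinc-finger protein TSHZ3 is needed for smooth muscle to form around the ureter, the tube that carries urine by peristalsis. In the adult kidney these genes are known from the walls of arteries and arterioles, from the renal pelvis and, for some of them, from mesangial cells, pericytes and other cells.

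The libraries held between 62631750 and 70792042 reads, recovered from the deposited values. Levels are in scaled TPM, the deposited TPM (transcript abundance corrected for gene length and library size) after scaling between libraries. This unit allows for gene length, taken as the summed exon length of a gene. Comparisons between genes depend on that length. Tshz3 itself had a higher mean under the HET label than under the WT label. It stood at 0.833 and 0.760 scaled TPM in the libraries labelled HET, against 0.653 and 0.723 in the libraries labelled WT, a log2 fold change of 0.13 ± 0.17 (SE; adjusted p = 0.790 in limma). The level of the targeted gene thus did not check the labels, and HET and WT below mean libraries labelled so. The pools also differed in sex-linked transcripts. Xist was at 60.5 and 57.7 scaled TPM in HET and 18.1 and 39.7 in WT, and the Y-linked gene Ddx3y at 4.02 and 17.0 in HET and 21.1 and 16.2 in WT. The part of these differences in the results below was not tested. Kidney tubule markers were high throughout, with the phosphate transporter gene Slc34a1 at 2005 and 2003 scaled TPM in HET and 2692 and 2093 in WT.

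None of the 10 contractile genes differed between HET and WT beyond the spread between pools, and none had both HET libraries on the same side of both WT libraries. The widest ratios between any pools of a genotype were those of Actg2 and Cnn1 between the HET pools, with Actg2 at 0.853 and 2.70 scaled TPM and Cnn1 at 1.201 and 3.24 in HET replicates 1 and 2. Over the 4 libraries Tagln, Acta2 and Smtn were the most abundant, near 50 scaled TPM, and Cnn1 and Actg2 the least, near 2.

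Among the thin-filament genes, Acta2 encodes the alpha-actin typical of vascular smooth muscle (ENSMUSG00000035783, mm10 chromosome 19, 34241090 to 34255336). It was at 45.3 and 54.7 scaled TPM in HET and 48.7 and 41.8 in WT. HET replicate 2 was the highest and WT replicate 2 the lowest, with HET replicate 1 and WT replicate 1 between them. Its means were 50.01 ± 6.68 in HET and 45.2 ± 4.85 in WT (SD, n = 2 each), a log2 fold change of 0.14 ± 0.16 (SE; adjusted p = 0.749 in limma). Actg2 encodes the gamma-actin typical of visceral smooth muscle such as gut, bladder and ureter (chromosome 6, 83512905 to 83536265). It was at 0.853 and 2.70 scaled TPM in HET and 1.30 and 1.86 in WT. The WT pools thus lay between the HET pools, the means were 1.78 ± 1.31 in HET and 1.58 ± 0.394 in WT (SD, n = 2 each), and the log2 fold change was 0.015 ± 0.44 (SE; adjusted p = 0.991 in limma). These levels rested on 40 and 147 reads in HET and 59 and 93 reads in WT, the fewest of the 10 genes. The actin genes are alike in coding sequence, and the share of reads that the authors' unique alignments left to each is not known.

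Serum response factor binds actin and other contractile gene promoters, and the promoter windows of the 10 genes were therefore searched for its CArG box. Windows of 300 bases, from 250 before to 50 after the RefSeq start in GRCm38.p6, were found for 7 of the 10 genes, with 8 windows in all. Tagln, Myh11 and Actg2 had no window and were not searched. No window held an exact CArG box, which 1.63% of 32851 mouse promoter windows hold. A degenerate form with a G or C at 1 of the 6 middle bases was searched after this, and 8.50% of the windows hold it. Among the 7 genes with a window it was found only in that of Acta2, in 2 places. Their first bases are at -84 and -34 relative to the RefSeq start. The start of Acta2 in the deposited table lies 37 bases downstream of that start. Both forms of the motif read alike on either strand. A missing match says that these letters are not in this window and nothing about SRF. The Acta2 window is printed below because it holds the matches, in capitals, and the Cnn1 window as that of the gene with a window whose levels spread most between pools.
Acta2 (chr19:34255324-34255623, minus strand): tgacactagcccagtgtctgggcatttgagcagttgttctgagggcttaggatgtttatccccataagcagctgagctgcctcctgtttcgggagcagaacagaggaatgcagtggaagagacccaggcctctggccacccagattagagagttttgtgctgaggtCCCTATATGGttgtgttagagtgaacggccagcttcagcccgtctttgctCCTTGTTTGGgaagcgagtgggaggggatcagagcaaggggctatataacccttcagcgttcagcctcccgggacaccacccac
Cnn1 (chr9:22099003-22099302, plus strand): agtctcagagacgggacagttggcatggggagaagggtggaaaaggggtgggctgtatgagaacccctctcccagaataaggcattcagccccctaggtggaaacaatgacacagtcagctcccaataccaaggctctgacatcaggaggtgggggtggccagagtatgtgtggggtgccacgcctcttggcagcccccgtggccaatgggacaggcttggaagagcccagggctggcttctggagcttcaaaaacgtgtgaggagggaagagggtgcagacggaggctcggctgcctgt

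Cnn1, whose window held no match, encodes calponin 1, an actin-binding protein of differentiated smooth muscle (ENSMUSG00000001349, chromosome 9, 22099216 to 22109630). It was at 1.201 and 3.24 scaled TPM in HET, while the WT pools, at 1.97 and 2.01, hardly differed. The HET pools thus stood on either side of both WT pools. The means were 2.22 ± 1.44 in HET and 1.99 ± 0.0303 in WT (SD, n = 2 each), and the log2 fold change was 0.019 ± 0.38 (SE; adjusted p = 0.988 in limma). Tagln encodes transgelin, or SM22-alpha, an actin cross-linking protein and an early marker of the lineage (chromosome 9, 45929619 to 45936058). It was at 47.8 and 55.8 scaled TPM in HET and 52.6 and 48.1 in WT, with both WT values inside the span of the HET values. Its means were 51.8 ± 5.63 in HET and 50.4 ± 3.17 in WT (SD, n = 2 each), and its log2 fold change was 0.037 ± 0.15 (SE; adjusted p = 0.933 in limma). Tagln shares 1241 exonic bases with Gm48529 and 108 with Pcsk7, both on the opposite strand. The sources used here do not give the strand setting of the counting, so such reads cannot be assigned to either gene.

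Cald1 encodes caldesmon, an actin-binding inhibitor of actomyosin that also has a form made in many non-muscle cells, and the table sums all its forms (chromosome 6, 34598500 to 34775473). It was at 19.1 and 22.9 scaled TPM in HET and 15.8 and 19.2 in WT, so that only WT replicate 2 and HET replicate 1 were out of order. With means of 21.0 ± 2.69 in HET and 17.5 ± 2.36 in WT (SD, n = 2 each), its log2 fold change of 0.25 ± 0.16 (SE) was the largest of the 10 and still did not pass (limma adjusted p = 0.628). Smtn encodes smoothelin, an actin-associated protein of contractile smooth muscle (chromosome 11, 3517523 to 3540612). It was at 54.8 and 44.3 scaled TPM in HET and 44.6 and 44.9 in WT. Here HET replicate 1 alone stood high, and HET replicate 2 lay just below both WT pools. The log2 fold change was 0.14 ± 0.15 (SE; adjusted p = 0.746 in limma). Smtn shares 714 exonic bases with Gm11946 and 39 with Gm11947 on the opposite strand.

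The thick filament is represented by Myh11, which encodes the smooth muscle myosin heavy chain, the most specific marker of the lineage in general use (ENSMUSG00000018830, chromosome 16, 14194535 to 14291372). It was at 8.16 and 13.7 scaled TPM in HET and 9.23 and 9.20 in WT. As with Cnn1, the WT pools were nearly equal and lay between the HET pools. Its means were 10.9 ± 3.94 in HET and 9.21 ± 0.0243 in WT (SD, n = 2 each), with a log2 fold change of 0.19 ± 0.24 (SE; adjusted p = 0.774 in limma).

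The remaining genes organise the filaments. Des encodes desmin, the intermediate filament protein of muscle (chromosome 1, 75360329 to 75368579), and was at 8.83 and 10.9 scaled TPM in HET and 8.63 and 9.82 in WT. The second pool was the higher in both genotypes, and the log2 fold change was 0.087 ± 0.16 (SE; adjusted p = 0.842 in limma). Des shares 220 exonic bases with Gm15179 on the opposite strand. Lmod1 encodes leiomodin 1, which starts new actin filaments in smooth muscle (chromosome 1, 135324807 to 135368065), and was at 5.04 and 4.11 scaled TPM in HET and 3.79 and 4.27 in WT. As with Smtn, its highest value was that of HET replicate 1. Its log2 fold change was 0.16 ± 0.17 (SE; adjusted p = 0.736 in limma). Synpo2 encodes myopodin, an actin-bundling protein of muscle (chromosome 3, 123076519 to 123236149), and was at 1.89 and 2.81 scaled TPM in HET and 1.67 and 2.50 in WT. Its pools paired off by replicate number rather than by genotype, and its log2 fold change was 0.14 ± 0.25 (SE; adjusted p = 0.841 in limma).

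**Figure D1:**
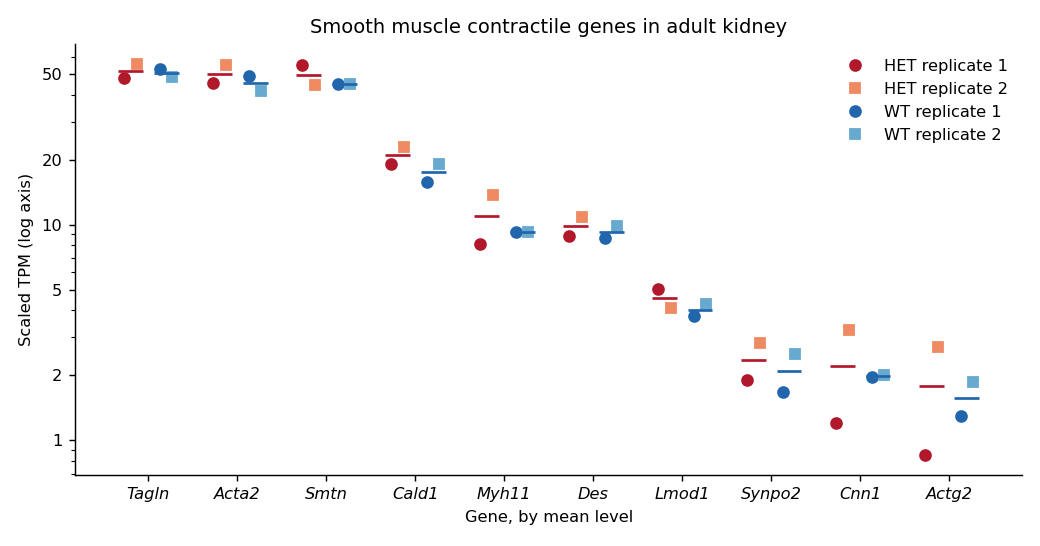
Level of each contractile gene in each library, in scaled TPM on a log axis; points are libraries and short lines the genotype means (n = 2 each), HET left of WT. Tagln, Acta2 and Smtn lie near 50, Cnn1 and Actg2 near 2, and for every gene the HET and WT points overlap.

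The order of the levels fell into separate steps. It depends on the summed exon length, which ran from 1557 bases for Actg2 to 13138 for Synpo2. The 4-library ranges of Tagln, Acta2 and Smtn, with means of 51.1, 47.6 and 47.2 scaled TPM, overlapped each other. Cald1, with a mean of 19.2, lay apart from Smtn above it and from Myh11 below it. Myh11 and Des, at 10.1 and 9.54, overlapped, and Lmod1, at 4.30, lay between Des and Synpo2 without touching either. Synpo2, Cnn1 and Actg2, at 2.22, 2.10 and 1.68, overlapped again. Summed, the 10 genes came to 193 and 215 scaled TPM in HET and 188 and 184 in WT, and Acta2, Tagln and Smtn made up 76.7% and 72.0% of this sum in HET and 77.5% and 73.4% in WT. The smooth muscle actins stood in a ratio of 1.88 and 4.93 Actg2 transcripts per 100 of Acta2 in HET and of 2.67 and 4.44 in WT. The level of the visceral actin was thus a small fraction of that of the vascular actin in every library, and in both genotypes the ratio was higher in the second pool.

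The comparison of HET with WT over all genes was made with limma. It called 2 of 22356 genes at a Benjamini-Hochberg adjusted p below 0.1, which is 0.00895% of the genes tested, and 0 of the 10 contractile genes, all of which were tested. At an unadjusted p under 0.05 there were 0 of the 10, where 7.26% of all genes tested had such a p, and the lowest unadjusted p of the 10 was 0.157, for Cald1. Both HET pools exceeded both WT pools for 0 of the 10 genes, against 21.8% of all genes tested, and both were lower for 0 of the 10, against 23.1%. The fitted log2 fold change was above 0 for all 10 genes, from 0.015 (Actg2) to 0.25 (Cald1) with a median of 0.14. Over all genes tested 51.1% were above 0, with a median of 0.0067. Without HET replicate 2 the median of the 10 genes was -0.065 and 4 of 10 were above 0, and without HET replicate 1 the median was 0.33 and 9 of 10 were above 0. An exact two-sided permutation test of 1 gene, 2 libraries against 2, cannot go below p = 0.333, so single genes rest on the variance shared across genes. In bulk tissue a change in the number of smooth muscle cells and a change in RNA per cell cannot be told apart.

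The 95% confidence intervals rest on the spread between these pools, and how much of it lies between animals is not known. They describe these 4 libraries and cannot exclude a difference between the genotypes. For 9 of the 10 genes the interval of the log2 fold change lay between -1 and 1. It ran from -0.13 to 0.64 for Cald1, from -0.25 to 0.53 for Acta2, from -0.32 to 0.39 for Tagln and from -0.24 to 0.51 for Smtn. For Myh11 it ran from -0.40 to 0.79 and for Cnn1 from -0.93 to 0.97. Only that of Actg2, from -1.09 to 1.12, reached beyond 1 in either direction. These fold changes are on the scale log2(scaled TPM + 0.5), where the pseudocount weighs most on the low genes Actg2, Cnn1 and Synpo2. With a pseudocount of 0.1 the log2 fold change was -0.019 for Actg2 and -0.0032 for Cnn1. None of the 10 genes is among the 97 in the authors' deposited table of differing genes.

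**Figure D2:**
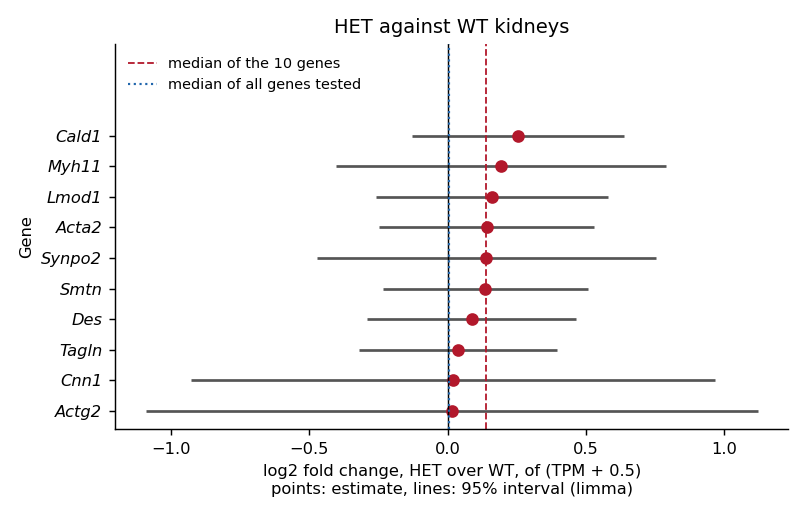
Log2 fold change of HET over WT for each contractile gene (points) with its 95% confidence interval from limma (lines); the dashed line is the median of the 10 genes (0.14) and the dotted line that of all genes tested (0.0067). Every interval holds 0, and those of Actg2 and Cnn1 are the widest.

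Differences between pools of a genotype were measured next. Actg2 was 3.16 times as high in HET replicate 2 as in HET replicate 1 (exact 95% interval 2.22 to 4.61, counting error only) and Cnn1 2.70 times (2.14 to 3.42). Myh11 was 1.68 times as high (1.59 to 1.78) and Synpo2 1.48 times (1.36 to 1.63). Smtn and Lmod1 went the other way, at 0.808 times (0.782 to 0.835) and 0.815 times (0.726 to 0.916). For all 10 genes the interval between the HET pools left out 1, and 8 of the 10 were higher in HET replicate 2. Between the WT pools the interval left out 1 for 6 of the 10 genes. There the ratio of replicate 2 to replicate 1 was 1.43 for Actg2 (1.02 to 2.01) and 1.497 for Synpo2 (1.36 to 1.65), and 1.02 for Cnn1 (0.820 to 1.27) and 0.996 for Myh11 (0.938 to 1.06). Such intervals compare these libraries and not the conditions. The median absolute log2 difference of the 10 genes was 0.30 between the HET pools and 0.18 between the WT pools. Over the 13516 genes tested within the same range of levels it was 0.18 between the HET pools and 0.18 between the WT pools.

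**Figure D3:**
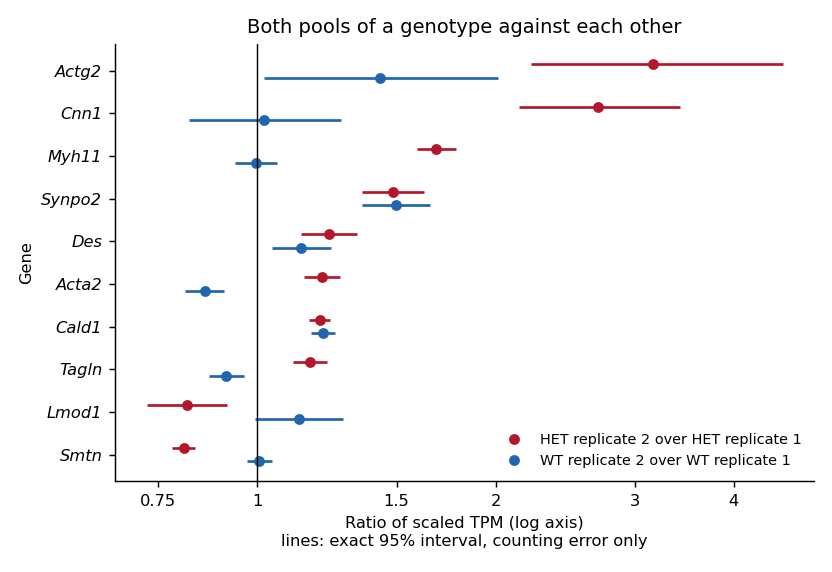
Ratio of scaled TPM of replicate 2 over replicate 1 within each genotype on a log axis, with exact 95% intervals that cover counting error only; red is HET and blue WT. Actg2 (3.16) and Cnn1 (2.70) stand far to the right between the HET pools, and Smtn and Lmod1 lie left of 1.

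The 10 genes followed more than 1 pattern over the libraries. As a description over 4 libraries, which share their depth and pooling, Pearson's r of log2 levels was 0.96 between Cnn1 and Actg2, 0.94 between Myh11 and Cnn1, 0.94 between Acta2 and Tagln and 0.97 between Des and Synpo2. Smtn and Lmod1 had an r of 0.92 with each other, and Smtn an r of -0.83 with Cnn1 and -0.79 with Actg2. Actg2 and Cnn1 spread most over the 4 libraries. The deviation of Actg2 from its own mean was -0.61 and 0.63 (log2) in HET replicates 1 and 2 and -0.20 and 0.19 in WT replicates 1 and 2. That of Tagln was -0.092 and 0.13 in HET and 0.045 and -0.082 in WT. The highest level was that of HET replicate 2 for 8 genes and that of HET replicate 1 for Smtn and Lmod1. The lowest was that of HET replicate 1 for 4 genes (Tagln, Myh11, Cnn1 and Actg2) and that of WT replicate 1 for another 4 (Des, Lmod1, Cald1 and Synpo2).

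**Figure D4:**
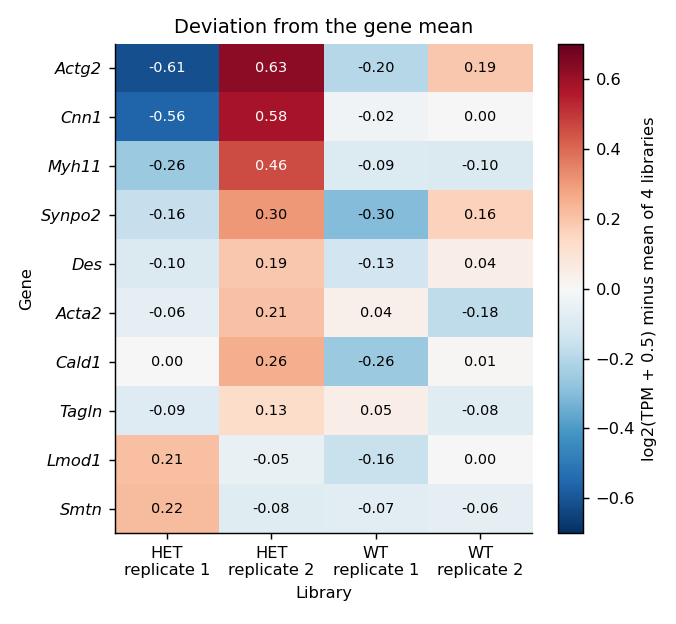
Deviation of each contractile gene from its mean over the 4 libraries, on the scale log2(scaled TPM + 0.5), red above and blue below the mean, ordered by the difference between the HET pools. Actg2 and Cnn1 stand at -0.61 and -0.56 in HET replicate 1 and at 0.63 and 0.58 in HET replicate 2, while Lmod1 and Smtn run the other way.

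None of the 5 genes closest in profile is on the lists used here. Against the mean profile of the 10 genes (-0.14 and 0.26 in HET replicates 1 and 2, -0.12 and -0.0021 in WT replicates 1 and 2), Pearson's r over the 4 libraries was highest for Samd9l, Kdm6bos, Clock, Cpeb1 and Trip12, between 0.998 and 0.9996, among 11785 genes with a mean of at least 5 scaled TPM. Of those genes 197 had an r of at least 0.95. So did 2 of the 10 contractile genes, Myh11 and Des, but their own levels are part of the mean profile, so these counts cannot be compared. Samd9l was at 42.8 and 52.4 scaled TPM in HET and 43.5 and 46.1 in WT.

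Other genes of the contractile apparatus were also not called. Of 22 such genes, among them the regulatory light chain gene Myl9, its kinase gene Mylk and the filamin gene Flna, 0 were called and 0 had an unadjusted p under 0.05. Their median log2 fold change was 0.14, 19 were above 0, and both HET pools exceeded both WT pools for 8 of the 22, against 21.8% of all genes tested. The 3 with the highest levels were Myl9, at 75.0 and 82.7 scaled TPM in HET and 75.1 and 80.3 in WT, Csrp1, at 84.6 and 76.9 in HET and 72.2 and 75.5 in WT, and Mylk, at 32.7 and 45.6 in HET and 42.1 and 36.4 in WT. Csrp1 encodes a LIM-domain protein of smooth muscle. Its log2 fold change was 0.13 ± 0.14 (SE), with both HET pools above both WT pools, and did not pass (limma adjusted p = 0.749).

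Regulators of the programme were likewise without a call. Of 18 tested transcription factor and signal genes 0 were called, 15 were above 0 and the median log2 fold change was 0.14. An unadjusted p under 0.05 was found for 1 (Notch3), against 7.26% of all genes tested. Both HET pools exceeded both WT pools for 7, against 21.8% of all genes tested, and both were lower for 0, against 23.1%. The signal genes Bmp4 and Smad3 and the factor gene Srf were the most abundant, with log2 fold changes of -0.13, 0.19 and 0.23. Srf was at 21.2 and 18.7 scaled TPM in HET and 17.4 and 16.4 in WT (limma adjusted p = 0.622), while Myocd, which encodes myocardin, was at 0.108 and 0.138 in HET and 0.107 and 0.121 in WT. Tbx18, a gene of the mesenchyme around the embryonic ureter, was also low, at 0.0844 and 0.563 scaled TPM in HET and 0.233 and 0.349 in WT. Its log2 fold change was -0.00057 (limma adjusted p = 0.999). Of the 18 tested genes of this list 8 were higher in HET replicate 2 than in HET replicate 1. Myocd and Tbx18 were named after their values were seen. Nkx2-5 was at 0 in all 4 libraries.

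Markers of other cells that kidney pieces can hold differed between the pools as well. Fat genes (6 of 6 tested) summed to 303 and 594 scaled TPM in HET and 259 and 402 in WT, and 4 of the 6 were higher in HET replicate 2 than in HET replicate 1, as were 8 of the 10 contractile genes. The leading fat genes Cfd, Fabp4 and Adipoq had log2 fold changes of 0.69, 0.075 and 0.41. The brown fat gene Ucp1 is in the authors' deposited table with a log2 fold change of -0.94. In limma it had one of -1.29 (adjusted p = 0.622). It was the 1 fat gene with an unadjusted p under 0.05, against 7.26% of all genes tested. Its levels were 11.1 and 8.70 scaled TPM in HET and 17.7 and 34.7 in WT. Interstitial fibroblast genes (10 of 10) summed to 207 and 256 in HET and 141 and 224 in WT, 8 of the 10 were higher in the second than in the other HET pool, and the median log2 fold change was 0.33. Of these 10 genes 1 had an unadjusted p under 0.05 (Fn1), against 7.26% of all genes tested. Both HET pools exceeded both WT pools for 3, against 21.8% of all genes tested, and both were lower for 1, against 23.1%. Col3a1, Dcn and Col1a2 led this list, with log2 fold changes of 0.49, 0.099 and 0.42. The part of these cells in the differences between pools was not tested.

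Urothelial genes, which mark the lining of the renal pelvis and ureter, summed to 70.9 and 69.7 scaled TPM in HET and 53.3 and 63.7 in WT (8 of 8 tested). Of the 8 genes 6 were higher in HET replicate 2 than in HET replicate 1, as Actg2 and Cnn1 were. The most abundant, Krt7, ran the other way, at 32.0 and 21.5 in HET and 23.0 and 22.3 in WT. The median log2 fold change was 0.19, and Krt7, Upk3a and Upk1a led the list, with log2 fold changes of 0.21, 0.12 and 0.51. None of the 8 was called, 2 had an unadjusted p under 0.05 (Upk1a and Krt20), against 7.26% of all genes tested, and both HET pools exceeded both WT pools for 4 of the 8, against 21.8%. Pericyte, mesangial and renin cell genes summed to 310 and 265 in HET and 221 and 249 in WT (14 of 14 tested), with a median log2 fold change of 0.23. Of the 14 genes 1 had an unadjusted p under 0.05 (Cspg4), against 7.26% of all genes tested. Both HET pools exceeded both WT pools for 6 of the 14, against 21.8% of all genes tested. Both were lower for 1 of the 14, against 23.1%. Ren1, Agtr1a and Rgs5 led this list, with log2 fold changes of 0.52, -0.085 and 0.22. Endothelial genes, led by Plvap, Tek and Ehd3 (0.0075, 0.20 and 0.11), had a median log2 fold change of 0.033 over 8 genes and summed to 369 and 359 in HET and 343 and 370 in WT.

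Podocyte genes, like Smtn and Lmod1, were higher in HET replicate 1 than in HET replicate 2, in 5 of 5 cases. They summed to 245 and 192 scaled TPM in HET and 187 and 200 in WT. Podxl and Synpo, among the most abundant of them, had log2 fold changes of 0.22 and 0.17. The part of podocytes in the levels of Smtn and Lmod1 was not tested. Striated muscle genes were near the floor, with 7 of 12 tested and a sum of 5.87 and 4.06 scaled TPM in HET and 2.90 and 4.30 in WT. Mylpf, Acta1 and Myh1 led them, with log2 fold changes of -0.27, 1.29 and 0.15. Ckm and Myh7 were at 0 in WT replicate 1 and Myh4 in HET replicate 2. Acta1, which encodes the skeletal alpha-actin, was at 3.05 and 0.875 in HET and 0.223 and 0.627 in WT, so that its high value and the low values of Actg2 and Cnn1 fell in the same pool.

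**Figure D5:**
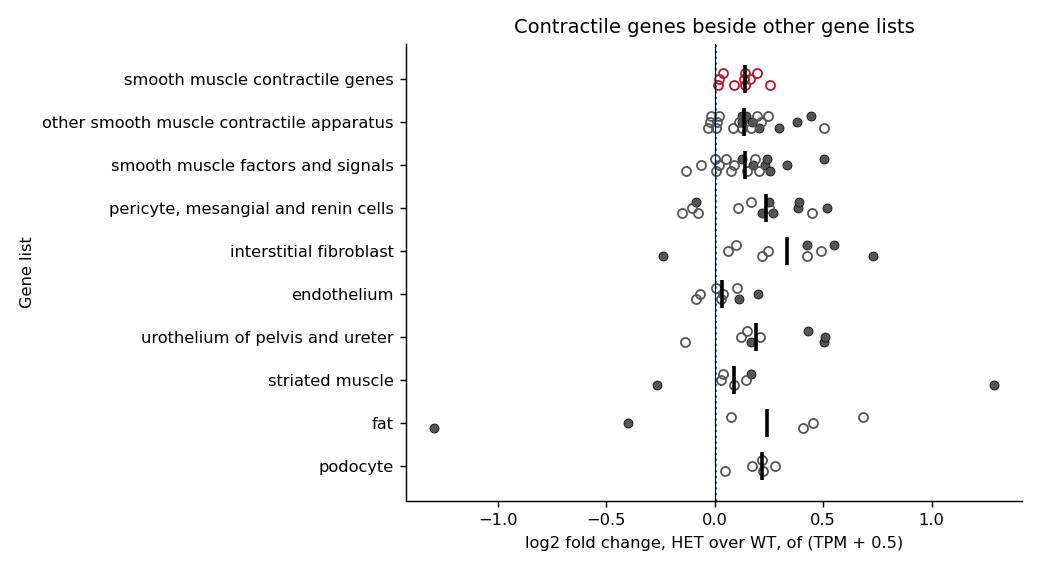
Log2 fold change of HET over WT for each tested gene of each list; filled points are genes with both HET libraries on the same side of both WT libraries, black bars are list medians and the dotted line is the median of all genes tested (0.0067). The 10 contractile genes lie between 0.015 and 0.25 with no filled point, and their median of 0.14 lies beside those of the other contractile genes (0.14) and the regulators (0.14).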

How the data were processed

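Poly(A) RNA of adult mouse kidney was measured in 4 libraries, 2 labelled HET (Tshz3+/LacZ) and 2 labelled WT. The authors deposited TPM for 54232 genes with exon coordinates and summed exon length (Length, another value per gene); the submitters' processing notes name the mm10 build and, without versions, edgeR, DESeq and DESeq2. Per the file headers the alignments were marked unique; the sources used here give no aligner, counter or strand setting. The authors' deposited table of 97 genes gives mean normalized counts (a signal per gene), log2 fold changes and adjusted p-values.

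TPM multiplied by exon length gave whole multiples of 1 step, taken as 1 read, for 100% of values above 0, within 0.001 reads. Pools of a genotype differed beyond counting error (chi-square per degree of freedom 73.2 for HET and 70.6 for WT). TPM were scaled by TMM (trimmed mean of M values) factors from these reads, corrected for length (1.06 and 1.13 for HET, 0.859 and 0.975 for WT), so that a scaled level is proportional to reads over scaled depth. limma 3.58.1 in R 4.3.3 was fitted to log2(scaled TPM + 0.5) using robust moderation with a trend (statmod 1.5.0), over the 22356 genes with at least 10 reads, at median depth, in 2 libraries and 15 in all. Calls used a Benjamini-Hochberg adjusted p below 0.1. The steps were tested on simulated data. Gene classes came from GENCODE M21 (54165 identifiers matched) and promoter windows from RefSeq GRCm38.p6.

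The contractile genes and gene lists were chosen with earlier results of these data known. Besides the contractile genes and Tshz3, the named genes were the 3 most abundant of each list (1 of them is not reported here), any called member, the 5 genes closest in profile, Xist and Ddx3y; Notch3, Cspg4, Fn1, Krt20, Flna, Myocd, Tbx18, Nkx2-5, Ucp1 and the striated muscle genes at 0 were named after their values were seen. Alternatives were other pseudocounts, filters, scalings and moderation, limma-voom, the replicate block and leaving out each library.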

Additional observations from a re-analysis of the deposited data

How the results depend on the processing

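Over 13 alternatives 0 of the 10 contractile genes were called in any, and 117 of their 130 log2 fold changes kept their sign. Scaling moved all genes: without scaling of the TPM the median of all genes was 0.20 and that of the 10 genes 0.37, and 5 of the 10 had both HET libraries above both WT libraries, against 49.7% of all genes tested. Without that scaling 3 of the 10 had an unadjusted p under 0.05 (Acta2, Smtn and Cald1, limma adjusted p = 0.399 each). Leaving out 1 library at a time, the median of the 10 genes ran from -0.065 (without HET replicate 2) to 0.33 (without HET replicate 1). The number with HET above WT throughout was lowest without WT replicate 1, at 1 of the 10, against 30.02% of all genes tested. It was highest without HET replicate 1, at 8 of the 10, against 36.85% of all genes tested. The genes of the other lists gave 0 to 3 calls, 3 of them (Acta1, Uty and Ddx3y) without HET replicate 2. Over all genes, leaving out 1 library gave 0 (WT replicate 1) to 97 calls (HET replicate 2). There were 0 calls with no filter on low genes (1945 genes at an unadjusted p under 0.05), 0 with limma-voom (1771) and 0 with the replicate block (1766), 1 without robust moderation and 5 with a stricter filter of low genes. Without WT replicate 1 546 genes had an unadjusted p under 0.05. The cause of these moves was not tested. Where a group had 1 library left, it was assumed to vary like the other group.

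Signs turned for uncalled values of 7 genes. Among the fits that leave out 1 library, the one without HET replicate 1 gave the highest log2 fold changes of 6 of these 7 genes. They were 0.63 for Actg2, 0.59 for Cnn1, 0.55 for Myh11, 0.37 for Synpo2, 0.23 for Des and 0.15 for Tagln. That fit was also the highest for Acta2, at 0.28, and Cald1, at 0.38. The fit without HET replicate 2 gave the highest of Smtn, 0.29, and of Lmod1, 0.29. Without HET replicate 2 the log2 fold change was -0.60 for Actg2, -0.54 for Cnn1, -0.17 for Myh11, -0.093 for Synpo2, -0.073 for Tagln and -0.056 for Des. It was -0.015 for Smtn without HET replicate 1, -0.18 for Actg2 and -0.092 for Synpo2 without WT replicate 1, and -0.040 for Tagln without WT replicate 2. With a pseudocount of 0.1 it was -0.019 for Actg2 and -0.0032 for Cnn1, and with limma-voom -0.0033 for Actg2. The replicate numbers are shared names, with 2 pairs and a correlation of same-numbered deviations of 0.12. With the replicate block the median of the 10 genes was 0.14 and the lowest adjusted p 0.529. Depth limits Actg2 and Cnn1 most, with 40 to 147 and 99 to 310 reads per library.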
